A study of Mus musculus with 10 samples.

Results

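In cells sorted as cortical microglia, several amino acid genes had a larger share of the RNA after lipopolysaccharide (LPS) than after saline. These were Psat1, an enzyme of serine synthesis, Asns, which makes asparagine, and Shmt2 and Mthfd2 of the mitochondrial folate cycle. The genes described here are 10 targets of the transcription factor ATF4 that serve amino acid supply, taken by gene name from the deposited count table of 40789 genes: Asns, Trib3, Chac1, Phgdh, Psat1, Shmt2, Mthfd2, Slc7a5, Slc7a11 and Slc3a2. All 10 names were found, each on 1 row. All mice were females of 2 to 3 months on the C57BL6/J background, with the genotype CX3CR1+/egfp, in which a green fluorescent protein gene takes the place of 1 copy of the fractalkine receptor gene. In the LPS group (n = 5) each mouse received 4 mg/kg LPS, a bacterial cell wall component, into the peritoneum, and in the control group (n = 5) saline, and all were killed 24 hours later. Cells with high fluorescence were sorted, and each library came from 1 mouse. The receptor gene that drives the reporter is also active in monocytes and border macrophages, so the sort alone does not separate these cells from microglia.

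ATF4 is the transcription factor of the integrated stress response. Kinases that sense amino acid shortage, misfolded protein, haem shortage or double-stranded RNA phosphorylate the translation factor eIF2alpha, general translation slows, and the ATF4 mRNA is translated more. ATF4 then binds, with C/EBP partners, to response elements in the genes of amino acid transporters and of enzymes that make serine, glycine and asparagine, and to Trib3 and Chac1, which feed back on the response and degrade glutathione. Activated macrophages are known to use serine and the folate cycle for nucleotides, glutathione and methyl groups.

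The upstream sequences of Asns, Chac1 and Slc7a11 held the core letters of the response element that ATF4 and C/EBP factors are known to bind. Those of Trib3 and Psat1 matched only a second form, chosen after the sequences had been read. All 5 are shown for these matches. RefSeq promoter windows (GRCm38.p6) were matched for 9 genes, all but Slc7a5, and the 250 bases before the annotated start were searched. The core searched was TGATGNAA on both strands, where N is any base. It was found before Asns, Chac1 and Slc7a11, 3 of 9 genes, and in 3.91% of all 27025 genes with a window. A second form, TGNNGCAAT, was chosen after the windows had been read. It can overlap the core and was found before Chac1, Trib3 and Psat1, and in 2.08% of all genes. Because this form was chosen from these windows, its matches in them cannot be weighed against that share. The sequences of chr6:7693210-7693459 (minus strand, Asns), chr2:119350992-119351241 (plus strand, Chac1), chr3:50443614-50443863 (minus strand, Slc7a11), chr2:152344061-152344310 (minus strand, Trib3) and chr19:15925060-15925309 (minus strand, Psat1) follow, 5′ to 3′, with the matches in capitals.
Asns: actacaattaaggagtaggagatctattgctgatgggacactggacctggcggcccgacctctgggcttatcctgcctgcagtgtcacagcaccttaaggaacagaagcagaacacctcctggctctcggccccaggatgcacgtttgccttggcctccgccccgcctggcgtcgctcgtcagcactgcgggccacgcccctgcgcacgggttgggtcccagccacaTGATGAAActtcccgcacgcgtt
Chac1: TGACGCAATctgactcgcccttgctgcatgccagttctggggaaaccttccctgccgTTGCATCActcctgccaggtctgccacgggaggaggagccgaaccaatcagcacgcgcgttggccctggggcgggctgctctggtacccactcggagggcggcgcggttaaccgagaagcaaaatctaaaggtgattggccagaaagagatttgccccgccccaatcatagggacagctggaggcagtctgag
Slc7a11: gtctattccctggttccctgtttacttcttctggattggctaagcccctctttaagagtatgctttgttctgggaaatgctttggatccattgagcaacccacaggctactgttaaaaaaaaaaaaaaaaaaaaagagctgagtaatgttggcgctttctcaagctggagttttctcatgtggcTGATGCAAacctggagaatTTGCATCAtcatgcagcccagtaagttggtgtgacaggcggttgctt
Trib3: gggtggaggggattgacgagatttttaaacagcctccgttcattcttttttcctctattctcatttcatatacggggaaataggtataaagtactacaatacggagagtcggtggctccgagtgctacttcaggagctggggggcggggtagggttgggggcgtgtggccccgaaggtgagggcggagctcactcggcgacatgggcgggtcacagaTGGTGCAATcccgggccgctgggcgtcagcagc
Psat1: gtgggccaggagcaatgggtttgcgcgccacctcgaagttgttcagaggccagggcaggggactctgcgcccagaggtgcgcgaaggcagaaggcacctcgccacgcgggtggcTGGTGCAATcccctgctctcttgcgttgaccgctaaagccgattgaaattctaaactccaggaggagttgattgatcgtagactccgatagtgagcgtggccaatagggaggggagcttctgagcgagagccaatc
Slc7a11 carried the core as a facing pair, at positions -66 to -59 and -47 to -40 counted from the start site, and Asns once, at -23 to -16. Chac1 had the core at -193 to -186 and the second form at -250 to -242. The start sites used for Slc7a11, Mthfd2 and Slc3a2 lie inside the annotated spans of these genes, so that other start sites upstream were not searched, and so does that of a further Psat1 window, which held neither form. The windows of Phgdh, Shmt2, Mthfd2 and Slc3a2 held neither form. The antioxidant response core TGACNNNGC, bound by NRF2, stood before Asns and Phgdh (11.5% of all genes), and the sites TGACGTCA and CACGTG, bound by CREB/ATF factors and by Myc, stood before none of the 9 (1.77% and 6.86% of all genes). A match describes these letters only and is not evidence of binding.

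The edgeR fit of LPS against saline covered 13793 genes and, at a Benjamini-Hochberg adjusted p below 0.05, put 22.4% of them higher and 22.5% of them lower. Of the 10 amino acid genes 8 passed the filter on low counts, of which 7 were called higher and none lower, and all 8 fitted fold changes were above 1. Trib3 and Chac1 did not pass, since their saline libraries all lay under the count minimum and only 4 LPS libraries of each reached it. Asns reached the minimum in 4 saline libraries and the other 7 tested genes in all 10 libraries. The median log2 fold change (LPS over saline) of the 8 tested genes was 1.09, and that of all tested genes 0.00142. Values below are CPM, counts divided by the library size after TMM scaling, and those of the 5 mice of a group are given in the order of replicates 1 to 5.

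**Figure D1:**
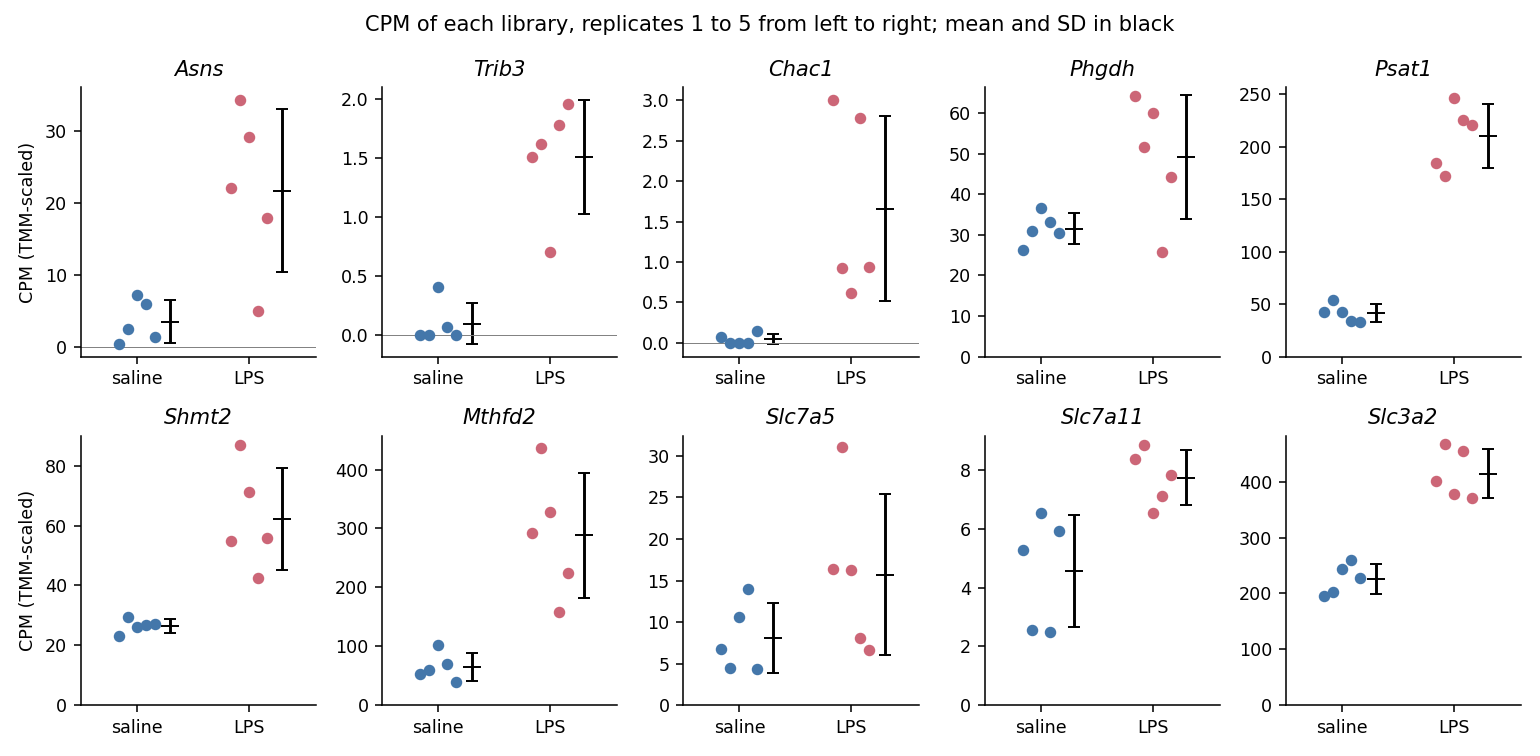
CPM of the 10 genes in each library, 1 point per mouse with replicates 1 to 5 from left to right in each group, and the mean with its SD (n = 5) in black beside them. The points of the groups do not overlap for Psat1, Shmt2, Mthfd2, Slc3a2, Trib3 and Chac1, and 1 LPS mouse, replicate 4, lies within or below the saline range for Asns and Phgdh.

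Of the serine synthesis genes, Psat1 had the highest fitted fold; the difference between genes was not tested. Psat1 (Entrez gene 107272, chromosome 19, 15905123 to 15925059 on GRCm38) encodes phosphoserine aminotransferase, which makes phosphoserine. The saline mice had 42.8, 54.5, 42.9, 34.0 and 32.6 CPM, and the LPS mice 185, 172, 246, 226 and 221 CPM. The groups lay far apart, with no overlap. The change was 5.08-fold (log2 fold change 2.34 ± 0.16 SE, edgeR adjusted p = 2.32e-07). Phgdh (Entrez gene 236539, chromosome 3, 98313171 to 98339969), the dehydrogenase that commits a glycolytic intermediate to serine, had 26.3, 31.0, 36.7, 33.3 and 30.5 CPM in the saline mice and 64.3, 51.6, 60.0, 25.7 and 44.2 CPM in the LPS mice. LPS replicate 4 lay below all saline mice, and the other 4 LPS mice lay above them all. Phgdh was called 1.56-fold higher (log2 fold change 0.64 ± 0.25 SE, edgeR adjusted p = 0.0213). The call ended without saline replicate 1, LPS replicate 1 or LPS replicate 3 (adjusted p = 0.0558, 0.0576 and 0.0583) and after correction for exon length (1.26-fold, adjusted p = 0.191).

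The mitochondrial folate enzymes Mthfd2 and Shmt2 rose, and every LPS mouse lay above every saline mouse. Mthfd2 (Entrez gene 17768, chromosome 6, 83305704 to 83326011), a mitochondrial methylenetetrahydrofolate dehydrogenase that is low in most adult tissues and high in dividing cells, had 52.7, 59.3, 102, 70.2 and 39.7 CPM in saline. In LPS it had 293, 437, 328, 159 and 224 CPM. The change was 4.44-fold (log2 fold change 2.15 ± 0.34 SE, edgeR adjusted p = 3.85e-05). Shmt2 (Entrez gene 108037, chromosome 10, 127517123 to 127522444), the mitochondrial hydroxymethyltransferase that passes a carbon of serine to folate, had 23.0, 29.4, 26.1, 26.8 and 27.1 CPM in saline. Its LPS values were 54.9, 86.7, 71.0, 42.6 and 55.7 CPM. The saline mice lay close together, with a coefficient of variation of 8.77% for Shmt2, against 27.4% in LPS. Shmt2 rose 2.35-fold (log2 fold change 1.23 ± 0.18 SE, edgeR adjusted p = 8.58e-05).

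Asns rose, with the highest fitted fold of the 8 tested genes and a wide spread between mice. The gene (Entrez gene 27053, chromosome 6, 7675165 to 7693209) encodes asparagine synthetase, which makes asparagine from aspartate and glutamine. In saline it had 0.395, 2.55, 7.27, 6.05 and 1.496 CPM, an 18.4-fold range, and in LPS 22.2, 34.4, 29.3, 5.01 and 18.0 CPM, a 6.87-fold range. LPS replicate 4 lay below saline replicates 3 and 4, and the other LPS mice lay above all saline mice. The change was 6.13-fold (log2 fold change 2.61 ± 0.84 SE, edgeR adjusted p = 0.00276).

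The feedback genes Trib3 and Chac1 were near 0 in saline and low in LPS. Trib3 (Entrez gene 228775, chromosome 2, 152337425 to 152344060), a pseudokinase that inhibits ATF4, had 0, 0, 5, 1 and 0 raw counts in saline and 18, 21, 9, 28 and 25 in LPS. Every LPS count exceeded every saline count. Summed over libraries and divided by total counts, LPS was 16.6 times saline (95% exact counting interval 7.36 to 46.2), and saline replicate 3 gave 5 of the 6 saline counts. Without a filter on low counts, Trib3 was called 15.4-fold higher (edgeR adjusted p = 0.000335). The size of the change rests on that mouse: without it the fitted fold was 57.9, in a fit that Trib3 entered through its LPS libraries alone, so that this value is a description. Chac1 (Entrez gene 69065, chromosome 2, 119351242 to 119354326), which cleaves glutathione, had 1, 0, 0, 0 and 2 counts in saline and 36, 12, 8, 44 and 12 in LPS. The LPS mice fell into a pair with high counts, replicates 1 and 4, and 3 with fewer. With 3 saline counts in all, the ratio was 36.8 (95% exact counting interval 12.3 to 181). Without the filter Chac1 was called 31.6-fold higher (edgeR adjusted p = 2.53e-05), and without saline replicate 5, which gave 2 of the 3 saline counts, the fitted fold was 61.3, with the same limit as for Trib3. The difference in CPM gave an exact two-sided permutation p of 0.00794 for Trib3 and for Chac1, the smallest that 5 against 5 mice can give. Intervals cover counting error only, as amplified reads without molecular identifiers are not independent molecules.

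Among the transporters the shared heavy chain Slc3a2 rose, Slc7a11 was called higher by a small margin and Slc7a5 was not called. Slc3a2 (Entrez gene 17254, chromosome 19, 8706882 to 8723369) encodes CD98, the heavy chain that carries several amino acid transporters to the cell surface. The saline mice had 195, 203, 244, 260 and 228 CPM and the LPS mice 401, 468, 377, 454 and 371 CPM, with no overlap and coefficients of variation of 12.1% and 10.7%. It rose 1.83-fold (log2 fold change 0.87 ± 0.10 SE, edgeR adjusted p = 0.000142). Slc7a11 (Entrez gene 26570, chromosome 3, 50364936 to 50499087), the cystine and glutamate exchanger, had 5.27, 2.55, 6.54, 2.50 and 5.91 CPM in the saline mice and 8.37, 8.83, 6.52, 7.10 and 7.83 CPM in the LPS mice. Its groups touched at saline replicate 3 and LPS replicate 3, and the LPS mice lay closer together than the saline mice. Slc7a11 was called 1.70-fold higher (log2 fold change 0.76 ± 0.30 SE, edgeR adjusted p = 0.0433). That call ended when any of saline replicates 1, 2 and 4 or LPS replicates 1, 2, 3 and 5 was left out (adjusted p of 0.0526 to 0.102). It also ended with library size alone, no filter or a term for mouse numbers (adjusted p = 0.0676, 0.0702 and 0.0812). Among the fits that kept the call were DESeq2 and limma-voom (adjusted p = 0.0218 for each). After correction for exon length the log2 fold change of Slc7a11 was 1.255 (adjusted p = 0.00685). Slc7a5 (Entrez gene 20539, chromosome 8, 121881146 to 121907686), the large neutral amino acid transporter, had 6.72, 4.50, 10.7, 14.0 and 4.42 CPM in the saline mice and 16.4, 31.0, 16.3, 8.05 and 6.65 CPM in the LPS mice. LPS replicates 4 and 5 lay within the saline range. Slc7a5 was not called (1.94-fold, log2 fold change 0.95 ± 0.51 SE, edgeR adjusted p = 0.0726), but was called without saline replicate 4, LPS replicate 4 or LPS replicate 5 (adjusted p = 0.0352, 0.0267 and 0.0316). It was also called with DESeq2, with a term for mouse numbers, with no filter and after correction for exon length (adjusted p of 0.00926 to 0.0447).

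**Figure D2:**
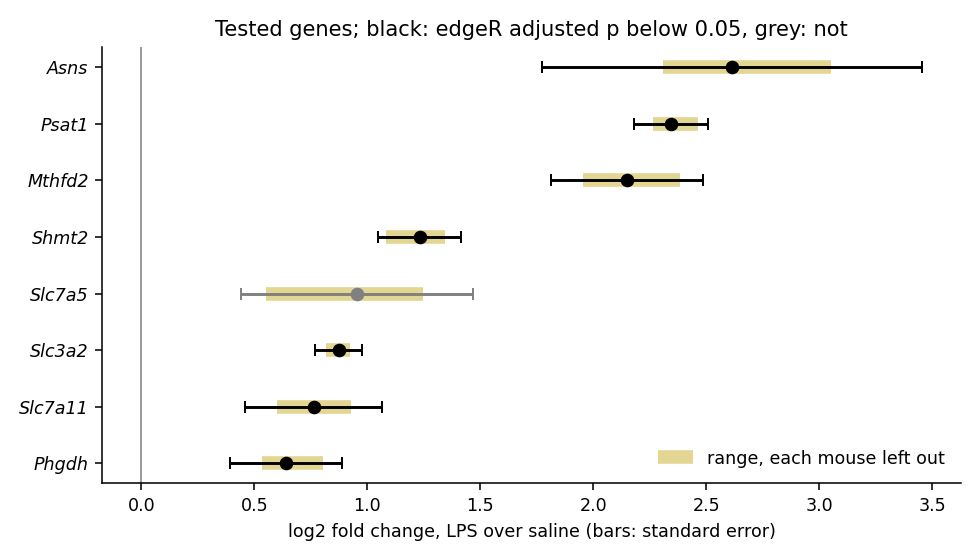
Log2 fold change (LPS over saline) of the 8 tested genes as fitted by edgeR, and in yellow its range when each of the 10 mice is left out. Bars are the standard error of the difference in mean log2 CPM and do not come from the edgeR fit. Asns, Psat1 and Mthfd2 lie above 2, Slc7a5 in grey was not called, and no range reaches 0.

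Of the tested genes, 4 were called at least 2-fold higher (Asns, Psat1, Shmt2 and Mthfd2), where 10.4% of all tested genes were. For 4 (Psat1, Shmt2, Mthfd2 and Slc3a2) all LPS mice lay above all saline mice in CPM, as for 14.1% of all tested genes. The genes did not rank the LPS mice alike. LPS replicate 2 was the highest of its group for 6 of 10 genes (Asns, Shmt2, Mthfd2, Slc7a5, Slc7a11 and Slc3a2) and the lowest for Psat1. LPS replicate 4 was the lowest for 4 (Asns, Phgdh, Shmt2 and Mthfd2), and LPS replicate 3 for 3 (Trib3, Chac1 and Slc7a11). Among saline mice, replicate 3 was the highest for 5 genes, and replicate 1 the lowest for 4.

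Levels between genes were compared in the deposited RPKM, which are per gene length and list 8 of the genes. In saline the order was Slc3a2 (74.6 ± 8.52 RPKM, SD, n = 5), Mthfd2 (27.1 ± 10.1), Phgdh (16.7 ± 2.09), Psat1 (16.5 ± 3.64), Shmt2 (11.4 ± 1.07), Slc7a5 (2.26 ± 1.14), Asns (1.54 ± 1.28) and Slc7a11 (0.474 ± 0.203). The ranges over mice of Mthfd2 and Phgdh, of Phgdh and Psat1, of Slc7a5 and Asns, and of Asns and Slc7a11 overlapped. In LPS the order was Slc3a2 (139.8 ± 14.8 RPKM), Mthfd2 (123 ± 46.0), Psat1 (85.2 ± 11.8), Shmt2 (27.3 ± 7.66), Phgdh (26.6 ± 8.36), Asns (9.69 ± 5.06), Slc7a5 (4.53 ± 2.83) and Slc7a11 (0.818 ± 0.103). Here the ranges over mice of neighbours were separate between Psat1 and Shmt2 and between Slc7a5 and Slc7a11, and overlapped for the other 5 neighbouring pairs. Psat1 thus stood beside Phgdh in saline and above it, with no overlap of the mice, in LPS.

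CD98 pairs with several light chains, and the most abundant of them are not ATF4 targets of the list above. The light chain genes of this comparison were chosen with earlier results of these data known. Of them the RPKM table lists Slc7a5, Slc7a6, Slc7a7, Slc7a8 and Slc7a11. Slc7a7, which exchanges cationic for neutral amino acids, and Slc7a8, an exchanger of neutral amino acids, together held nearly all of the summed light chain RPKM. The share of Slc7a7 was 46.9% ± 4.01 (SD, n = 5) in saline and 71.2% ± 3.93 in LPS, and that of Slc7a8 49.4% ± 3.69 and 22.03% ± 3.40 (exact two-sided permutation p = 0.00794 for each, 0.00992 adjusted over 5 light chains). Slc7a5 held 0.918% ± 0.445 of it in saline and 1.95% ± 0.961 in LPS (exact permutation p = 0.0476, also after adjustment), which was no longer below 0.05 when any of 7 mice was left out, namely saline replicates 1, 2, 3 and 5 and LPS replicates 1, 2 and 3 (exact permutation p of 0.0556 to 0.103). Slc7a11 held 0.197% ± 0.0919 and 0.376% ± 0.0511 (exact permutation p = 0.00794, 0.00992 adjusted). The shares are parts of the same total, so the fall of Slc7a8 in itself raises the others. Tests of the shares are therefore not independent of each other. The ratio of Slc3a2 to the sum of the 5 light chains was 0.255 to 0.343 over the saline mice and 0.554 to 0.856 over the LPS mice (exact permutation p = 0.00794), while the sum itself was 245.9 ± 15.6 and 220.0 ± 34.4 RPKM (exact permutation p = 0.190). Per gene, edgeR called Slc7a8 lower (2.54-fold, adjusted p = 5.93e-05) and Slc7a7 and Slc7a6 higher (1.33-fold and 1.42-fold, adjusted p = 0.0171 and 0.0332), of which Slc7a7 and Slc7a6 were named after their values were seen.

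**Figure D3:**
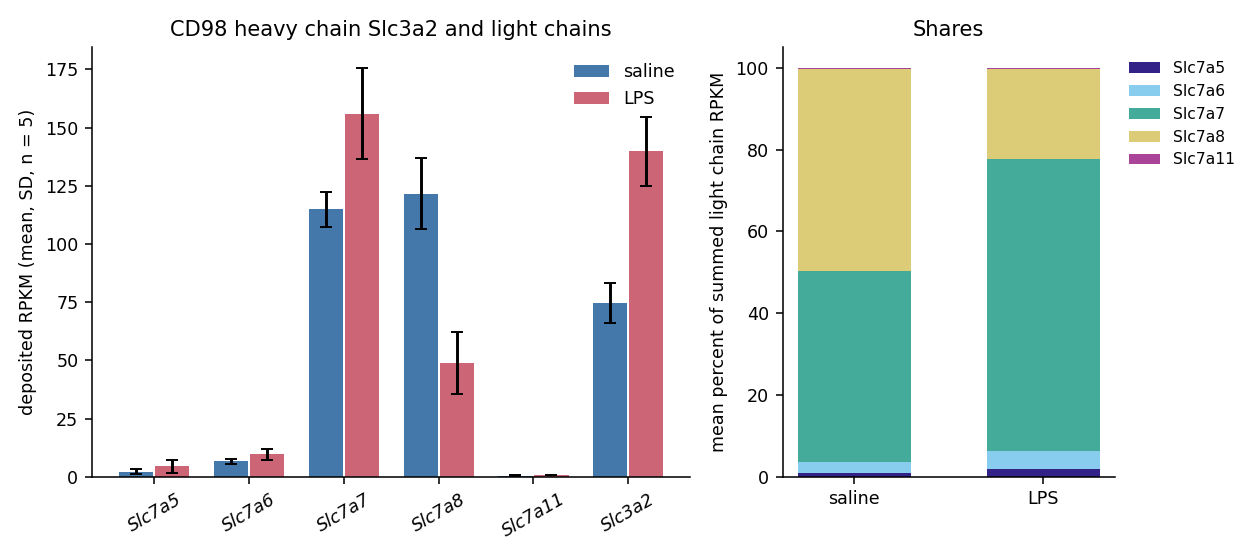
Left, deposited RPKM of Slc3a2 and 5 light chain genes as mean and SD over 5 mice per group. Right, the mean share of each light chain in their summed RPKM, in which Slc7a7 goes from 46.9% to 71.2% and Slc7a8 from 49.4% to 22.03%.

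Atf4 itself rose. The saline mice had 148, 111, 135.5, 103 and 141 CPM and the LPS mice 237, 259.7, 219.8, 312 and 280.3 CPM, without overlap (2.05-fold, log2 fold change 1.03 ± 0.13 SE, edgeR adjusted p = 8.13e-05). After correction for exon length the log2 fold change of Atf4 was 0.70 (edgeR adjusted p = 0.00112). LPS replicate 4, the lowest for Asns, Phgdh, Shmt2 and Mthfd2, was the highest for Atf4. It lay above the LPS mean for Psat1 (226 against 210 CPM), Slc3a2 (454 against 414), Trib3 (1.77 against 1.51) and Chac1 (2.79 against 1.66). For Slc7a5 and Slc7a11 it lay below the LPS mean. Of 7 tested ATF4 and partner factor genes 4 rose and 1 fell, beside 22.4% and 22.5% of all tested genes. Cebpb, a partner of ATF4 in inflammation, rose from 8.21 ± 4.42 to 31.6 ± 8.26 CPM (SD, n = 5), and Nupr1, a stress-induced chromatin protein, 3.77-fold. Ddit3, which encodes the stress factor CHOP, was called 1.4999-fold higher (edgeR adjusted p = 0.0184), and not without LPS replicate 5 (adjusted p = 0.0536) or after correction for exon length (log2 fold change -0.040, adjusted p = 0.818). The gene that fell was Cebpg, a C/EBP partner of ATF4, named after its values were seen (127 ± 16.4 to 68.9 ± 18.4 CPM). Atf3 had 15.3 ± 9.97 and 24.7 ± 25.5 CPM (edgeR adjusted p = 0.311), and its direction turned without LPS replicate 1 (log2 fold change -0.16). Atf5 did not pass the filter, and without it was not called (edgeR adjusted p = 0.516).

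Upstream of ATF4, 2 of 7 tested genes of eIF2alpha, its kinases and its phosphatase rose and 1 fell. The shares of all tested genes called higher and lower were 22.4% and 22.5%. Eif2ak2, the kinase PKR that senses double-stranded RNA and is induced by interferon, rose 2.09-fold to 89.5 ± 21.7 CPM, and Eif2s1, which encodes eIF2alpha, 1.92-fold to 145 ± 28.2 CPM. Eif2ak1, the haem-regulated kinase, fell from 42.8 ± 3.26 to 32.6 ± 3.13 CPM (edgeR adjusted p = 0.0191), a call that ended with no filter or after correction for exon length (adjusted p = 0.0593 and 0.379). Eif2ak3 (PERK, the kinase of endoplasmic reticulum stress) and Eif2ak4 (GCN2, the kinase of amino acid shortage), both named after their values were seen, were not called (30.6 and 30.8 CPM, edgeR adjusted p = 0.959, and 18.5 and 20.5 CPM, edgeR adjusted p = 0.574). After correction for exon length 4 genes of this list were called higher and none lower. Of all 12160 genes then tested, 2445 were called higher and 2346 lower.

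Other ATF4 targets were called higher for 12 of 22 tested genes and lower for 2, beside 22.4% and 22.5% of all tested genes, with a median log2 fold change of 0.74. Eif4ebp1, an inhibitor of cap-dependent translation, rose from 10.8 ± 2.33 to 51.4 ± 12.05 CPM (4.77-fold, edgeR adjusted p = 1.12e-06). Slc1a5, a glutamine transporter, rose from 2.47 ± 1.0038 to 17.7 ± 4.70 CPM (7.07-fold, edgeR adjusted p = 4.52e-06). The falling genes were Cebpg and Xpot, which exports tRNA from the nucleus, both named after their values were seen. Of the genes called here, Eif4ebp1, Slc7a1, Slc1a4, Slc1a5, Ddit3, Cebpb, Psph and Cebpg also stand in other lists given here.

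Among 17 tested enzymes of serine, glycine and one-carbon metabolism 5 rose and 1 fell, beside 22.4% and 22.5% of all tested genes. Their median log2 fold change was 0.04. Psph, which completes serine synthesis after Phgdh and Psat1, rose 1.92-fold from 24.5 ± 4.95 CPM, Gcsh of the glycine cleavage system 1.78-fold from 20.8 ± 3.47 CPM, and Ahcy of the methylation cycle 5.20-fold from 0.881 ± 0.231 CPM. The others called higher were Shmt1, the cytosolic counterpart of Shmt2 (7.56 ± 2.15 to 13.8 ± 4.44 CPM), and Sfxn1, a mitochondrial serine carrier (48.1 ± 2.84 to 68.1 ± 16.1 CPM), both named after their values were seen. Mthfd1l, the mitochondrial enzyme that follows Mthfd2, had 10.7 ± 1.85 CPM in saline, against 9.17 ± 1.45 CPM after LPS and was not called (edgeR adjusted p = 0.347), and the cytosolic Mthfd1 had 26.2 ± 7.36 and 25.5 ± 7.41 CPM (edgeR adjusted p = 0.904), both named after their values were seen. The gene that fell was Mtr, methionine synthase, named after its values were seen (edgeR adjusted p = 0.0334), and the number of genes called lower was 3 without LPS replicate 2 and 0 without saline replicates 1, 2 or 4 or LPS replicates 1 or 3, each left out alone.

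Among 12 tested other amino acid transporters 6 rose and 2 fell, beside 22.4% and 22.5% of all tested genes. Besides Slc1a5, Slc7a1, a carrier of arginine and lysine, rose 3.46-fold to 27.7 ± 14.3 CPM, and Slc7a8 and Slc1a3, a glutamate carrier named after its values were seen, were those that fell. Of 13 tested glutathione and NRF2 target genes 8 rose and 1 fell, beside the same shares. After correction for exon length 5 rose, where 2445 of all 12160 genes then tested were called higher. Hmox1, haem oxygenase, rose 3.90-fold to 137 ± 16.2 CPM, Gpx1, a glutathione peroxidase, 2.93-fold and Txnrd1, thioredoxin reductase, 1.70-fold. The gene that fell was Gclc, the catalytic subunit that starts glutathione synthesis, named after its values were seen (48.8 ± 6.56 to 32.0 ± 3.18 CPM, edgeR adjusted p = 0.00237). Nfe2l2, which encodes NRF2, had 544 ± 28.1 and 657 ± 89.9 CPM and was not called (edgeR adjusted p = 0.0949).

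Aminoacyl-tRNA synthetases, which load amino acids onto tRNA, were called higher for 13 of 20 tested genes and lower for 1. The shares of all tested genes were 22.4% and 22.5%. Farsb and Farsa, the phenylalanine enzyme's subunits, rose 2.04-fold and 1.797-fold, and Gars, the glycine enzyme, 1.67-fold. The gene that fell, Aars for alanine, named after its values were seen, went from 226 ± 13.1 to 146 ± 15.8 CPM but lost its call after correction for exon length (adjusted p = 0.103).

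**Figure D4:**
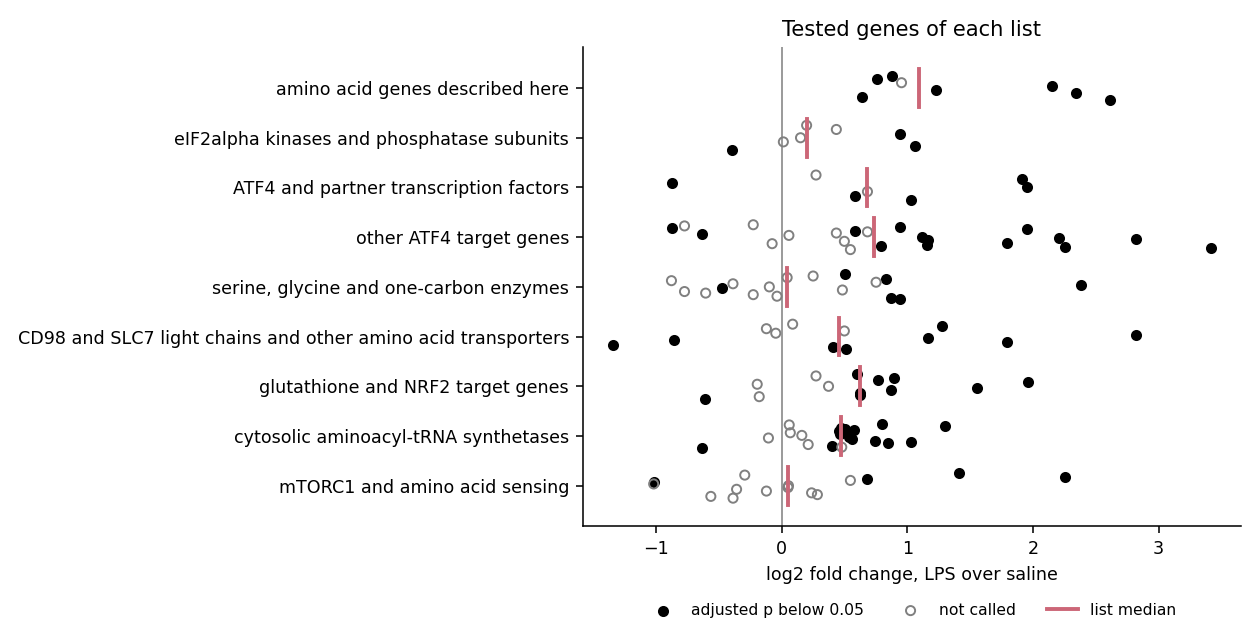
Log2 fold change (LPS over saline) of every tested gene of 9 lists, filled where the edgeR adjusted p was below 0.05, with the list median as a red line. The 8 tested amino acid genes have a median of 1.09, and the other lists medians of 0.04 to 0.74. All lists were chosen with earlier results of these data known.

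The genes with the most similar course over the 10 libraries were found among the 9790 tested genes whose mean reached 5 CPM, as the smallest root-mean-square (RMS) difference of log2 CPM after centring each gene on its mean. The likeness to Shmt2 was closest for Wdr55 and Myd88, an adaptor of Toll-like receptors (RMS difference 0.113 and 0.134, where the profile of Shmt2 itself had an RMS of 0.649). Psat1 was nearest to Gm12250 and Pram1 (0.211 and 0.218, own RMS 1.20). Mthfd2 was nearest to the NF-kB subunit gene Nfkb2 and the chemokine gene Cxcl16 (0.353 and 0.369, own RMS 1.17). Asns had no close match, with Cox6a2 and Mthfd2 at 0.913 and 0.927 against an own RMS of 1.86. These profiles contain the difference between the groups.

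The libraries held 11577295 to 15274421 counts in saline and 12928007 to 15332121 in LPS. All 10 microglia markers were detected, with a summed level of 65850 to 72650 CPM in saline and 23780 to 42210 CPM in LPS. This sum was lower in LPS (exact two-sided permutation p = 0.00794, 0.0143 adjusted over 9 lists). Of the 10 markers 6 were called lower and none higher. In a bulk sample, fewer cells of a type and less RNA per cell cannot be told apart. The summed monocyte markers spanned 14.4 to 22.4 CPM over the saline mice and 78.0 to 219 CPM over the LPS mice, with 3 of 6 tested markers higher and 2, Ccr2 and Spn, lower. The border-associated macrophage sum spanned 30.5 to 47.0 and 120 to 237 CPM, with 3 of 4 tested markers higher. Of the 8 markers in each of these lists, 3 of monocytes and 4 of border-associated macrophages had a mean below 1 CPM. The most abundant were Ms4a4c and Fn1 for monocytes, and Dab2 and Mrc1 for border-associated macrophages. The neutrophil sum spanned 0.162 to 1.12 and 2.01 to 28.1 CPM, with 6 of 8 markers at a mean below 1 CPM. Each of these 3 sums differed (exact two-sided permutation p = 0.00794 each, 0.0143 adjusted over 9 lists). The part of these cells in the results above was not tested. Astrocytes, which are known to express Phgdh, Psat1 and Slc7a11, had a marker sum of 17.4 to 28.3 CPM over the saline mice and 15.5 to 39.6 CPM over the LPS mice (exact permutation p = 0.516), with 7 of 10 markers at a mean below 1 CPM and most of the sum in Aldoc and Slc1a2. Endothelium, which is known for Slc7a5, had 53.1 to 78.9 CPM in saline and 6.50 to 12.2 CPM in LPS (exact permutation p = 0.00794, 0.0143 adjusted). This sum was mostly Pecam1, with Cldn5 and Emcn at 0 counts in every library. Marker sums of oligodendrocytes (103 to 129 and 90.2 to 118 CPM), neurons (3.56 to 7.92 and 3.60 to 6.21 CPM) and lymphocytes (0.187 to 1.51 and 0.307 to 2.09 CPM) had exact permutation p of 0.127, 0.333 and 0.603. Genes with a summed exon length of up to 1447 bp, the shortest of 5 equal classes, took 13.1% ± 1.98 (SD, n = 5) of counts in saline and 20.6% ± 3.09 in LPS (exact permutation p = 0.00794). After correction for exon length, which takes out each library's trend, Asns, Psat1, Shmt2, Mthfd2, Slc7a11 and Slc3a2 were still called higher.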

How the data were processed

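RNA of sorted cells from 5 saline and 5 LPS mice was amplified from 5 ng with a SMARTer kit before library construction, per the labels' protocols. The authors deposited raw counts for each gene. Per the submitters' processing notes, featureCounts was used with GRCm38 or mm10. No source used here gives the aligner, annotation or strand setting, so reads of overlapping genes (GENCODE lists such genes for Psat1, Shmt2, Mthfd2, Slc7a5 and Slc7a11) cannot be assigned with certainty. The authors also deposited RPKM values, whose normalization is not explained; 1 of the 2 RPKM tables was used.

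Counts were tested with edgeR 4.0.16 (R 4.3.3): TMM factors, filterByExpr with a count minimum of 10, the quasi-likelihood F test, no covariate, Benjamini-Hochberg adjustment over all tested genes at 0.05. Standard errors are those of the difference in group means of log2 CPM with a prior count of 2, and the edgeR test does not use them. Single values were compared by exact two-sided permutation tests over mice. Summaries used Python 3.11.15. The fit was tested on simulated data. A row that lacked a gene name was dropped, and 15 names that a spreadsheet had turned into dates were restored from the Entrez ID. Libraries of a group differed beyond sampling noise (chi-square per degree of freedom at least 13.4).

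Alternatives were RLE, upper-quartile and library-size scaling, no filter, a filter of 1 CPM in 5 libraries, DESeq2 1.42.0, limma-voom (limma 3.58.1), limma on log2(RPKM + 1) with a mean RPKM of at least 1, with a pseudocount of 0.1 or with no filter, ranges of mouse numbers as a term, protein-coding genes only, each library's trend over exon length removed (GENCODE M21 lengths matched by symbol for 88.2% of tested genes), and each mouse left out. Named genes are the 10 genes, Atf4, Ddit3, Atf3, Atf5 and Nfe2l2, the 3 called genes with the smallest adjusted p of each pathway list (or the most abundant where none was called), the 2 most abundant markers of other cells, and the 2 nearest profiles of genes called at least 2-fold. The genes and lists were chosen with earlier results of these data known.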

Additional observations from a re-analysis of the deposited data

Results flagged for a closer look

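In groups of 5 mice, 1 mouse stood far from the others (Dixon's test at 95%) for a few of the values given above. The test was run in both groups for the 10 amino acid genes and the pathway genes named by rule. Chance flags about 1 in 20 groups of normally distributed values, so some of these flags can come by chance. The low counts of Trib3 are not distributed in this way. Whether there were more flags than chance gives was not tested. Trib3 had 0.404 CPM in saline replicate 3, from 5 counts, and at most 0.0624 CPM in the other saline mice. Atf3, an early stress response factor, was highest in replicate 1 of both groups, with 32.6 CPM against at most 14.8 in the other saline mice and 69.1 CPM against at most 23.2 in the other LPS mice. Gcsh had 25.1 CPM in LPS replicate 4 and at least 38.2 CPM in the other LPS mice. Slc7a1 had 53.2 CPM in LPS replicate 2, the mouse that was also highest for 6 of the 10 amino acid genes, and at most 22.5 CPM in the other LPS mice.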

How the results depend on the processing

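Over 13 other settings the number of amino acid genes called higher was 6 to 9, and with each mouse left out it was 5 to 9. These counts take in Trib3 and Chac1 where they passed the filter, with a mouse left out only through their LPS libraries. Over the 8 genes tested with all mice, of which the RPKM fits with a filter tested 7, the number was 6 to 8 and 5 to 8, with 5 without saline replicate 1, LPS replicate 1 or LPS replicate 3. None was called lower in any of these fits. The number of all genes called higher was 2445 to 3492 over the settings and 2661 to 3607 with a mouse left out, and of those called lower 2346 to 3482 and 2657 to 3559. Asns, Psat1, Shmt2, Mthfd2, Slc3a2 and Atf4 were called higher in all 23 alternatives, with adjusted p of at most 0.0102 (Asns). The calls of Phgdh, Slc7a11, Slc7a5 and Ddit3 depended on the setting or on single mice, as given above. Slc7a11, with a mean below 1 RPKM, was not tested in the RPKM fits with a filter. Ddit3 turned to a log2 fold change of -0.04041 after correction for exon length, and Atf3 to -0.16 without LPS replicate 1, with a range of -0.16 to 1.16 over the mice left out; the cause was not tested. Nfe2l2 was called higher with DESeq2 (adjusted p = 0.0386). The number of synthetase genes called higher was 10 to 14, and of other ATF4 targets 11 to 13, over all alternatives. No paired analysis was possible because the labels give each mouse its own number and name no pairs between groups. Whether mice were handled in pairs or batches is not stated in the labels. Ranges of mouse numbers were used as a term instead, which changed the calls of Slc7a5 and Slc7a11 as given above. Trib3 and Chac1 are limited by depth, with 6 and 3 counts over the saline libraries.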

Other observations

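Genes of mTORC1 and amino acid sensing, through which cells match growth to amino acid supply, held 15 tested genes, of which 3 (Lamtor1, Eif4ebp1 and Myc) were called higher and 1 (Sesn1) lower, beside 22.4% and 22.5% of all tested genes, with a median log2 fold change of 0.05. The number called lower was 3 without LPS replicate 4 and 2 without saline replicate 2. Myc, a growth factor-induced transcription factor, had 148, 139, 51.1, 41.7 and 55.8 CPM in saline replicates 1 to 5. The LPS mice had 290, 285, 154, 301 and 128 CPM (2.66-fold, edgeR adjusted p = 0.00623). LPS replicate 5 lay below saline replicates 1 and 2, so that the groups overlapped. Sesn1, a leucine sensor that restrains mTORC1, fell 2.02-fold from 174 ± 28.0 CPM (SD, n = 5; edgeR adjusted p = 0.000787). Lamtor1 was named after its values were seen.

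Of the Tribbles family, Trib1, a pseudokinase that directs protein degradation in myeloid cells, had 52.7 ± 20.4 CPM in saline, against 74.1 ± 24.2 CPM after LPS and was not called (edgeR adjusted p = 0.140). It was called without saline replicate 1 (adjusted p = 0.0343) and after correction for exon length (adjusted p = 0.0288).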
